A study of Sus scrofa with 20 samples.

Results

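CPHL1, TDO2, SULT1C4, CHIA and FIBCD1 are 5 of the 19280 genes in a table of pig skin RNA, chosen by their measured levels in these same libraries, which were high in the haired sites (upper foot and flank) and at or near 0 in snout and sole. Their rows were found by Ensembl identifier: ENSSSCG00000025468 for CPHL1, ENSSSCG00000008868 for TDO2, ENSSSCG00000037616 for SULT1C4, ENSSSCG00000023706 for CHIA and ENSSSCG00000005707 for FIBCD1. The contrast of haired sites with sole and snout is therefore given below as values, with no test, and the tests concern differences that the choice did not use.

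The samples were 4 mm punch biopsies of upper (dorsal) foot, flank, snout and sole (volar foot) from 5 wild-type female Yorkshire pigs, with 5 libraries per site and 1 library per pig and site. Pigs are named here by their age of 4, 5, 6, 7 or 8 months, so each age is a single animal, and the 7- and 8-month pigs share a harvest date. Libraries were made from polyadenylated RNA of whole biopsies, which hold epidermis, hair follicles, glands, dermis and, at some sites, deeper tissue. In such bulk samples, fewer cells of a type and less RNA per cell cannot be told apart.

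Library numbers fall in a first set of 12 libraries (pigs of 4, 7 and 8 months) and a second set of 8 (pigs of 5 and 6 months). In the second set the deposited site names went against expression, and sites were taken from the expression match instead: libraries labelled snout count as upper foot, dorsal as flank, volar as snout and flank as sole. With the 5 genes left out, all 8 second-set libraries were closest to that site of the first set (Pearson r 0.77 to 0.87 over 2000 variable genes, with no other site above 0.74), while 11 of 12 first-set libraries were closest to their own label. The exception was the 7-month flank, at 0.70 with upper foot and 0.66 with flank. The 6-month flank of the second set was at 0.80 with flank and 0.74 with upper foot. EN1, a transcription factor of ventral limb skin, had at least 9.14 CPM (counts scaled to library size) in sole libraries and at most 3.36 CPM elsewhere, and ALX1, a factor of the developing face, had 18.2 to 19.8 CPM in snout libraries and at most 0.424 CPM elsewhere. Both genes overlapped between upper foot and flank, so the split of these sites is the less certain part of the match. Totals ran from 34077861 to 66906489 counts per library. The haired sites carried hair follicle RNA, and so did the snout: KRT71, a keratin of the inner root sheath, had 2006.1 to 6006.2 CPM in upper foot, 192.9 to 7580.0 CPM in flank, 114.0 to 489.1 CPM in snout and 0.0253 to 21.1 CPM in sole libraries. Haired thus names the upper foot and flank only by their ordinary coat, since hair genes were not confined to them.

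The 5 genes come from separate branches of biochemistry. TDO2 encodes tryptophan 2,3-dioxygenase, a haem enzyme best known from liver that opens the ring of tryptophan and so begins the kynurenine pathway. SULT1C4 is a cytosolic sulfotransferase, which moves sulfate from a donor nucleotide onto phenols and other small molecules. CHIA is acidic chitinase, a secreted enzyme that cuts chitin and is known from stomach and lung of mice. FIBCD1 is a membrane receptor whose fibrinogen-like domain binds acetylated structures, chitin among them, as shown for the human protein. CPHL1 is a relative of ceruloplasmin and hephaestin, copper-carrying oxidases that act on iron, and its own role in skin is not described here.

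CPHL1 was abundant in both haired sites, and its level differed widely between libraries of 1 site. The upper foot libraries had 752.3 CPM (4 months), 20.1 (5 months), 746.8 (6 months), 125.1 (7 months) and 1048.8 (8 months). The flank libraries of the same pigs had 30.5, 454.7, 2269.8, 824.6 and 1671.5 CPM, in the same order of age. Every haired library stood above every other library, the lowest of them 34.7 times the highest snout value. Of the snout libraries, those of the 4- and 6-month pigs had no CPHL1 count and the others had 0.58 CPM (5 months), 0.126 (7 months) and 0.0171 (8 months). Among sole libraries only that of the 8-month pig had any, with 2 counts (0.0388 CPM). Pooled over libraries, upper foot was 2950.7 times and flank 6232.5 times the snout level. Against the sole, where the ratio rests on those 2 counts, upper foot was 43903.5-fold higher (95% Poisson interval 12153.7 to 362525.4) and flank 92732.7-fold higher (25671.1 to 765723.8). Intervals and floors of this kind cover counting error only.

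TDO2 was found in haired skin alone in these libraries: no count was recorded in any of the 5 snout or 5 sole libraries. Its upper foot levels were 29.6 CPM (4 months), 1.29 (5 months), 11.5 (6 months), 11.8 (7 months) and 20.1 (8 months). Its flank levels were 1.07, 17.8, 36.2, 44.4 and 45.0 CPM in the same order. A floor of 3 counts over a group corresponds to 0.0101 CPM in snout and 0.0166 CPM in sole. Against that floor upper foot was at least 1467.4-fold higher than snout and at least 891.2-fold higher than sole, and flank at least 3051.3-fold and at least 1853.0-fold higher.

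SULT1C4 ran closely beside TDO2. Upper foot libraries had 16.4 CPM (4 months), 1.23 (5 months), 10.7 (6 months), 9.05 (7 months) and 19.6 (8 months), and flank libraries 1.23, 27.5, 41.2, 35.5 and 23.0 CPM in that order. The snout libraries held 3 counts in all, 1 each in the 4-, 5- and 6-month pigs, and the sole libraries none. Pooled over libraries, upper foot was 1091.2-fold above snout (95% Poisson interval 373.4 to 5291.4) and flank 2587.5-fold (885.4 to 12547.1). Against the sole floor the bounds were at least 662.7-fold for upper foot and at least 1571.4-fold for flank.

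CHIA was the gene of the group that kept a measurable level at every site. Upper foot libraries had 197.6 CPM (4 months), 24.4 (5 months), 125.9 (6 months), 87.0 (7 months) and 186.0 (8 months). Flank libraries had 2.69, 252.6, 368.4, 280.8 and 259.3 CPM in the same order. Snout libraries had 0.763, 0.535, 0.759, 2.11 and 1.89 CPM and sole libraries 0.481, 1.15, 1.05, 1.29 and 0.815 CPM, again by age. The groups did not overlap, but the margin was narrow: the flank of the 4-month pig, at 2.69 CPM, was 1.27 times the snout of the 7-month pig. Pooled over libraries, upper foot was 95.8 times snout and 130.0 times sole, and flank 189.2 times snout and 256.6 times sole.

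FIBCD1 varied least of the 5 across the 10 haired libraries, with its highest value 5.09 times its lowest, against 33.6 times for SULT1C4, 42.2 for TDO2, 112.8 for CPHL1 and 137.2 for CHIA. Upper foot libraries had 4.43 CPM (4 months), 14.4 (5 months), 5.89 (6 months), 8.88 (7 months) and 3.60 (8 months), and flank libraries 13.6, 10.9, 9.87, 18.3 and 9.69 CPM in that order. Snout libraries held 5 counts in all (at most 0.0279 CPM in a library) and sole libraries none. The lowest haired library was 128.9 times the highest snout library. Pooled over libraries, upper foot was 460.2 times and flank 756.7 times snout, and against the sole floor the bounds were at least 465.8-fold and at least 765.9-fold.

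**Figure D1:**
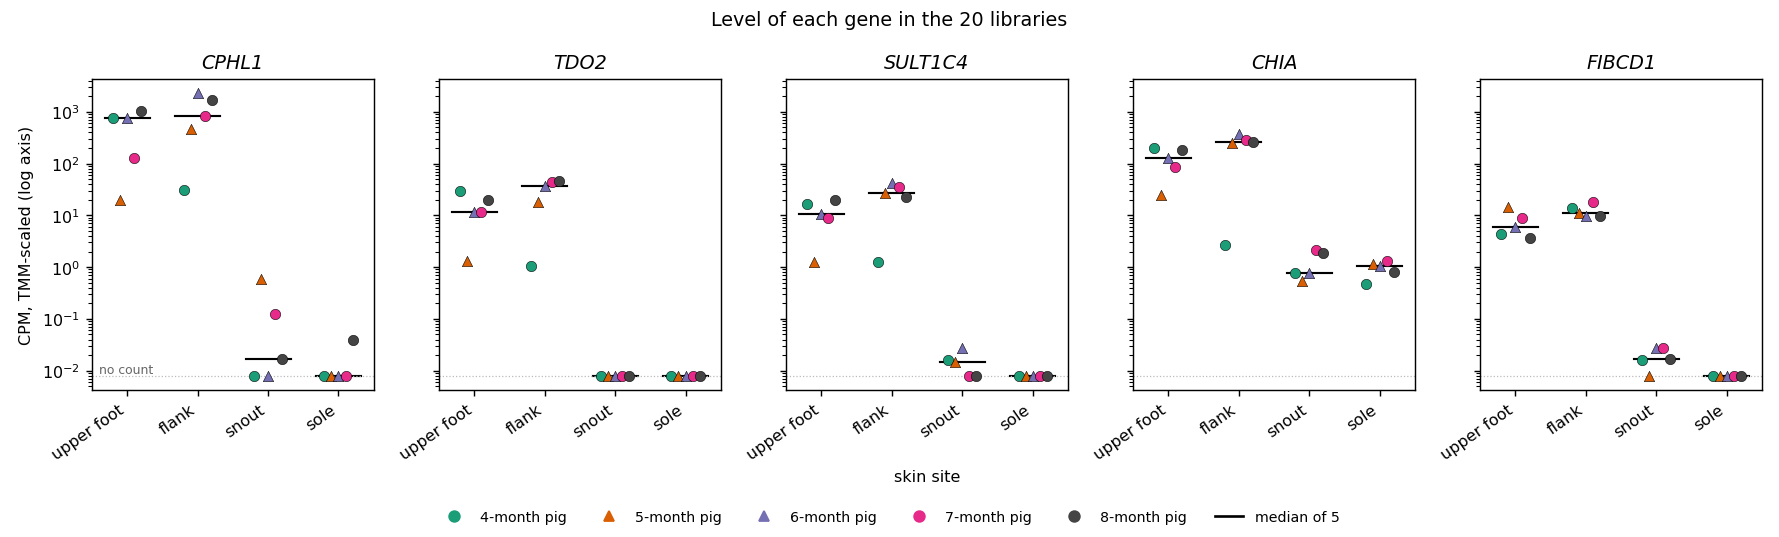
Level of each of the 5 genes in all 20 libraries, in CPM on a log axis, by skin site, with 1 point per library, circles for the first set, triangles for the second, colours for the pig and a bar for the median of 5. The dotted line marks libraries with no count. All 10 haired libraries lie above all 10 snout and sole libraries for each gene, and the 4-month flank and 5-month upper foot points hang low in every panel but FIBCD1.

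By mean level the order was flank, upper foot, snout and sole for each gene, with snout and sole equal at 0 for TDO2. CPHL1 averaged 538.6 ± 444.2 CPM in upper foot and 1050.2 ± 910.9 in flank, and TDO2 14.9 ± 10.6 and 28.9 ± 19.0 CPM (SD, n = 5 each). SULT1C4 averaged 11.4 ± 7.11 CPM in upper foot and 25.7 ± 15.4 in flank, CHIA 124.2 ± 71.7 and 232.8 ± 136.7, and FIBCD1 7.45 ± 4.39 and 12.5 ± 3.63 (SD, n = 5 each). Upper foot and flank thus stood next to each other with overlapping libraries in all 5 genes, as did snout and sole. All 5 genes passed the count filter, and 48.8% of the 15275 genes tested were called between haired sites and the sole and snout (edgeR quasi-likelihood test, Benjamini-Hochberg adjusted p under 0.05). Nothing is read from the call of all 5 there, since that contrast chose them.

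The difference between the haired sites was open to test, and 0 of the 5 genes passed it. In this comparison 1.16% of genes were called (177 of 15275, with 1795 at an unadjusted p under 0.05, and 334 with the pig as replicate block), 0.439% higher and 0.72% lower in upper foot, and every one of the 5 had a lower mean in upper foot than in flank. The log2 change, upper foot minus flank, was -0.96 ± 0.90 for CPHL1 (SE; 95% interval -2.87 to 0.95, edgeR adjusted p = 0.787) and -0.96 ± 0.84 for TDO2 (-2.74 to 0.82, adjusted p = 0.772). It was -1.17 ± 0.68 for SULT1C4 (-2.61 to 0.27, edgeR adjusted p = 0.563), -0.91 ± 0.70 for CHIA (-2.39 to 0.57, adjusted p = 0.714) and -0.74 ± 0.35 for FIBCD1 (-1.48 to 0, adjusted p = 0.418). These intervals are wide beside the changes themselves, so neither a lower nor an equal level in upper foot was shown for any of the 5 genes.

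Taken pig by pig, the upper foot was below the flank in 4 of 5 pigs for each gene, but not in the same 4. The 4-month pig ran the other way for CPHL1, TDO2, SULT1C4 and CHIA, with upper foot over flank ratios of 24.7, 27.8, 13.4 and 73.6. In FIBCD1 that pig followed the majority, with a ratio of 0.324, and the 5-month pig was the exception, with a ratio of 1.32. In the 5-month pig the other 4 genes had ratios of 0.0443 (CPHL1), 0.0726 (TDO2), 0.0446 (SULT1C4) and 0.0966 (CHIA), further below 1 than in any other pig. The 6-, 7- and 8-month pigs were below 1 for all 5 genes, with CPHL1 at 0.329, 0.152 and 0.627.

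**Figure D2:**
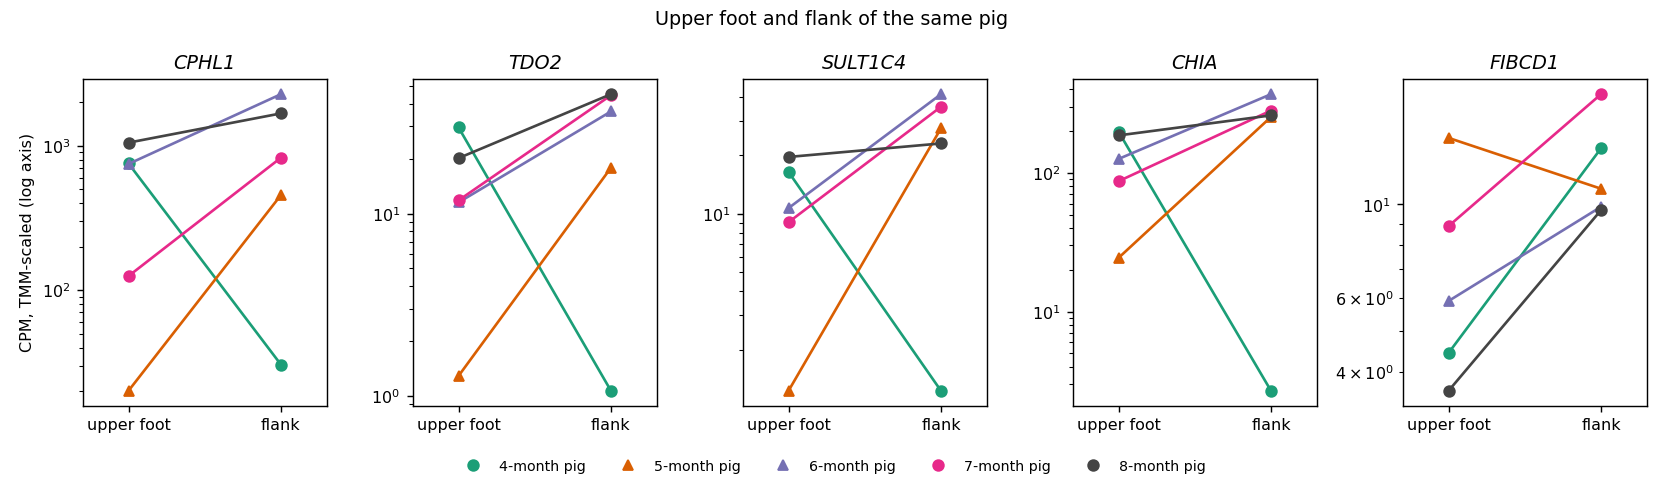
Upper foot and flank of the same pig for each gene, in CPM on log axes that differ between panels, with a line per pig. Lines climb to the flank in 4 of 5 pigs for each gene, and the 4-month pig descends in CPHL1, TDO2, SULT1C4 and CHIA, where its ratio of upper foot over flank is between 13.4 and 73.6.

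A pair of libraries stood apart, the flank of the 4-month pig and the upper foot of the 5-month pig (deposited label snout). For CPHL1, TDO2, SULT1C4 and CHIA these were the lowest and second lowest of the 10 haired libraries. FIBCD1 was not low in either, at 13.6 CPM in the 4-month flank and 14.4 CPM in the 5-month upper foot, which was its highest upper foot value. The 4-month flank library was also low in hair genes: 20 hair shaft and inner root sheath markers summed to 556.0 CPM there and to 3892.0 CPM or more in the other 4 flank libraries. The 5-month upper foot library was not, at 12941.6 CPM within an upper foot range of 6357.1 to 16354.4 CPM. FOXA1, a transcription factor of sweat and other glands, was at 0.116 CPM in the 4-month flank against 8.21 to 17.0 CPM in the other flanks, and at 1.48 CPM in the 5-month upper foot against 3.75 to 5.20 CPM in the other upper feet. The summed sweat gland markers, FOXA1 among them, were not low in the pair. They came to 413.8 CPM in the 4-month flank, within a flank range of 327.5 to 497.6 CPM. In the 5-month upper foot they came to 361.9 CPM, within an upper foot range of 302.8 to 413.8 CPM. KRT77, ATP1B1, CA2 and SLC12A2 had the highest flank means of that list, at 120, 81.9, 69.1 and 60.3 CPM, and FOXA1 had 10.1 CPM. The sum therefore does not show whether its less abundant markers were low. The summed sebaceous gland markers of the 5-month upper foot, 2531.5 CPM, lay within the upper foot range of 1071.8 to 2886.7 CPM, and those of the 4-month flank, 1089.8 CPM, were the lowest of the flank (up to 12754.9 CPM). SCD and FASN had the highest flank means of that list, at 4120 and 1070 CPM. The summed adipocyte markers of the 4-month flank, 283.3 CPM, were likewise the lowest of the flank (up to 3420.5 CPM). The part of these markers in the low values was not tested. With this pair of libraries left out, an alternative chosen after seeing the data, the upper foot minus flank change of CPHL1, TDO2, SULT1C4 and CHIA moved by at most 0.05 and its error shrank, while that of FIBCD1 grew with about the same error. The values were -0.97 ± 0.69 for CPHL1 (SE; edgeR adjusted p = 0.612), -0.98 ± 0.38 for TDO2 (0.298), -1.19 ± 0.29 for SULT1C4 (0.0594), -0.96 ± 0.36 for CHIA (0.225) and -1.10 ± 0.34 for FIBCD1 (0.139). None passed, and 247 genes did in all.

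Snout and sole could be compared for CHIA and CPHL1 alone, since the other 3 genes had at most 5 counts in either group. In that comparison 36% of genes were called, and neither gene was. CHIA differed by 0.37 ± 0.81 on the log2 scale, snout minus sole (SE; 95% interval -1.35 to 2.09, edgeR adjusted p = 0.757). CPHL1 differed by 3.58 ± 2.54 (-1.80 to 8.96, edgeR adjusted p = 0.285), a change that rests on 39 counts in the 5-month snout library and 9 in the 7-month one. Both of these are among 3 snout libraries that carried skeletal muscle RNA: 13 muscle markers summed to 4463.0 CPM in the 5-month, 7788.1 in the 6-month and 10608.1 CPM in the 7-month snout, against 14.4 and 9.03 CPM in the 4- and 8-month snouts. The 6-month snout had no CPHL1 count. Without these 3 libraries the CPHL1 change was -0.32 ± 4.93 (SE).

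Across the 20 libraries the 4 enzymes moved as a block and FIBCD1 stood somewhat apart. On log2(CPM + 0.5) values, Pearson r between pairs of CPHL1, TDO2, SULT1C4 and CHIA was 0.97 to 0.99 over 20 libraries, and r of FIBCD1 with them 0.85 to 0.89. The choice of genes fixes much of that, so the likeness was also taken on deviations from each site's mean over the 10 haired libraries. There r was 0.89 to 0.97 among the 4, and FIBCD1 ran against them, at -0.72 with CPHL1, -0.55 with TDO2, -0.57 with SULT1C4 and -0.44 with CHIA. Over the 8 haired libraries without the low pair, r was 0.53 to 0.90 among the 4 and -0.73 to -0.29 with FIBCD1. All of these are descriptions over points that share a library, its depth and its scaling.

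Of 11953 genes ranked by likeness to each member over the 20 libraries, the same few names recurred for the 4 enzymes. ABCC11, an efflux pump known in humans for secretion by apocrine glands, was among the 5 most like all 4 (r 0.93 to 0.95), and so was KYNU (0.94 to 0.96), kynureninase, which acts downstream of TDO2. GJB1, a gap junction protein, and SLC9A4, a sodium and proton exchanger, were each among the 5 most like 3 of the 4. KMO, kynurenine 3-monooxygenase, was among those most like TDO2 (0.92) and SULT1C4 (0.93). SMPDL3A and ENGASE completed the CPHL1 list (0.94 and 0.93), and TMEM25 and CBR1 the CHIA list (both 0.94). FIBCD1 had other genes near it, among them C4orf17, TMPRSS11F, a membrane serine protease, and TNFRSF18, a receptor of the tumour necrosis factor family (0.95 each), and SKAP2 (0.94). On deviations from the site means over the 20 libraries, r was 0.84 for C4orf17, -0.08 for TMPRSS11F, 0.18 for TNFRSF18 and 0.09 for SKAP2. TMPRSS11F, TNFRSF18 and SKAP2 were thus like FIBCD1 between sites and hardly within them.

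Deviations from the site means, here over all 20 libraries and not the 10 haired ones alone, gave a shorter list. ABCC11 was the gene most like CPHL1 (r 0.97), TDO2 (0.90) and SULT1C4 (0.91) by this measure. LTF, the iron-binding protein lactoferrin, followed for CPHL1 (0.90), and GJB1 led for CHIA (0.93). GJB1 was also among the 3 most like SULT1C4 (0.91), and KRT75, a keratin of the hair follicle's companion layer, among those most like CHIA (0.89). For FIBCD1 the genes were C4orf17 (0.84), ULBP1 (0.73) and SLC35D3 (0.66).

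ABCC11 shows the pattern library by library. It had 30.9, 1.05, 12.8, 5.53 and 37.4 CPM in the upper foot of the 4-, 5-, 6-, 7- and 8-month pigs and 2.27, 17.6, 62.9, 20.2 and 33.8 CPM in their flanks. The lowest of each site was the same library as for CPHL1. In snout it had 1.13 to 1.93 CPM and in sole 0.177 to 0.592 CPM. LTF was likewise low in the pair, at 3.30 CPM in the 5-month upper foot and 3.22 CPM in the 4-month flank, with 6.41 to 44.2 CPM in other upper foot and 13.5 to 94.0 CPM in other flank libraries. Over the other 8 haired libraries, without the low pair, r of the deviations of ABCC11 was 0.90 with CPHL1, 0.65 with TDO2, 0.79 with SULT1C4 and 0.94 with CHIA. For KYNU it was 0.54, 0.17, 0.61 and 0.69 with the same genes, and for KMO 0.08 with TDO2 and 0.52 with SULT1C4. With CPHL1 it was 0.30 for SMPDL3A, 0.67 for ENGASE, 0.71 for SLC9A4 and 0.84 for LTF. SLC9A4 had 0.77 with TDO2 and 0.34 with SULT1C4. GJB1 had 0.43 with TDO2, 0.81 with SULT1C4 and 0.82 with CHIA. TMEM25, CBR1 and KRT75 had -0.02, 0.63 and 0.55 with CHIA.

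**Figure D3:**
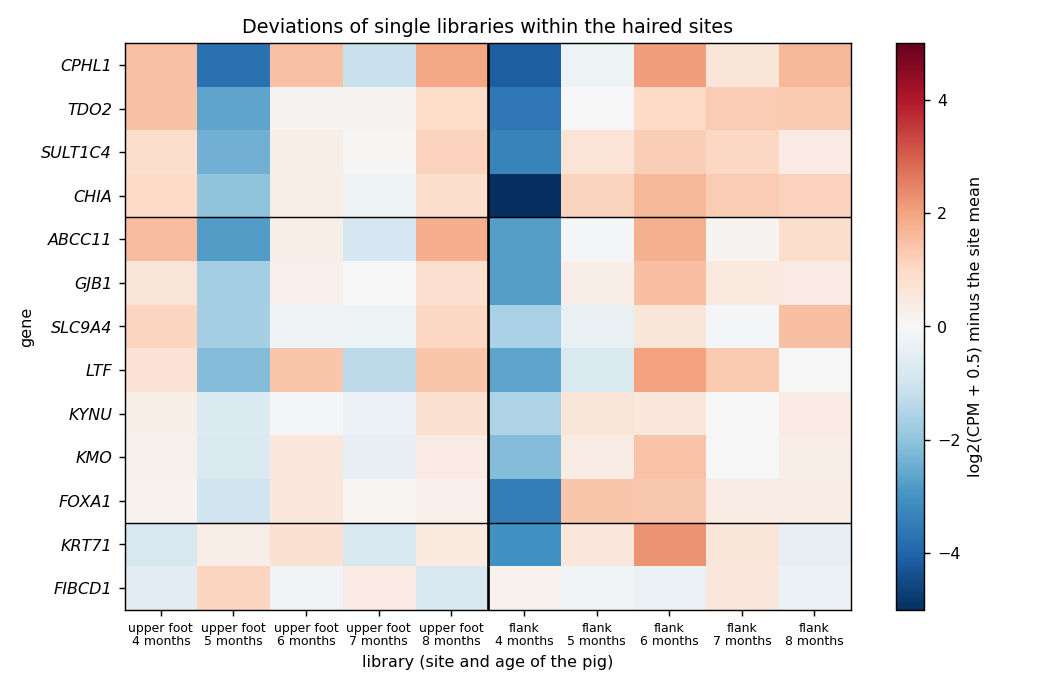
Deviation of each of the 10 haired libraries from the mean of its site, as log2(CPM + 0.5), for CPHL1, TDO2, SULT1C4 and CHIA (top), genes like them and FOXA1 (middle), and KRT71 and FIBCD1 (bottom). Columns are libraries by site and pig age. The 5-month upper foot and 4-month flank columns are blue for the top and middle rows, while KRT71 is dark blue in the 4-month flank but not in the 5-month upper foot, and FIBCD1 in neither.

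The pathway around TDO2 did not move as 1 unit between haired sites and the sole and snout. Of 17 other genes of tryptophan and kynurenine handling that were tested, 4 were higher and 6 lower in haired skin, where 24.3% of all genes were called higher and 24.6% lower. Their median log2 change was -0.26, against 0.03 over all genes tested. KYNU was higher by 2.42 ± 0.30 (SE, log2; edgeR adjusted p = 2.18e-06), with mean levels of 3.85 CPM in upper foot, 5.99 in flank, 1.11 in snout and 0.714 in sole. KMO, which hydroxylates kynurenine, was higher by 2.55 ± 0.34 (edgeR adjusted p = 6.32e-06), with 8.25, 14.0, 2.40 and 1.39 CPM at those sites. SLC6A19, a carrier of neutral amino acids with means of at most 0.804 CPM, and KYAT1, a kynurenine aminotransferase, were the other genes that were higher. Within the first set alone 2 were higher and 6 lower of 16 tested, KYAT1 no longer among them (adjusted p = 0.467). IDO1 and IDO2, which catalyse the same first step as TDO2 and are named for that role, were not called: IDO1 had a log2 change of 0.37 ± 0.20 (SE, edgeR adjusted p = 0.129), with means of 1.28 CPM in upper foot, 1.26 in flank, 0.922 in snout and 1.04 in sole.

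The genes on the lower side included both chains of the main tryptophan carrier. SLC7A5 was lower in haired skin by 1.84 ± 0.22 on the log2 scale (log2 change -1.84, SE 0.22, edgeR adjusted p = 1.96e-06), with 73.4 CPM in upper foot, 69.2 in flank, 167 in snout and 390 in sole. Its partner SLC3A2 had a log2 change of -0.65 ± 0.11 (SE, edgeR adjusted p = 0.000111), and DDC, which makes serotonin and dopamine from their precursors, -1.84 ± 0.34 (0.000171). KYAT3, GOT2 and AHR, the receptor that kynurenine can bind, were the other 3 that fell, the AHR call being lost in the first set alone (log2 change -0.13, adjusted p = 0.298) and with upper-quartile scaling (0.0744).

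Among 11 other sulfotransferase and sulfate donor genes tested, 6 were higher in haired skin and 2 lower, beside 24.3% and 24.6% of all genes (median log2 change 0.42, against 0.03 over all genes). SULT1E1, the estrogen sulfotransferase, was higher by 2.71 ± 0.37 (SE, edgeR adjusted p = 9.1e-06), with 53.6 CPM in upper foot, 54.4 in flank, 10.4 in snout and 6.52 in sole. SULT1A3 was higher by 1.79 ± 0.31 (edgeR adjusted p = 8.78e-05) and SULT1C3, a close relative of SULT1C4, by 0.42 ± 0.12 (0.00599). The other relative in that subfamily, SULT1C2, had a log2 change of 0.12 ± 0.21 (SE, edgeR adjusted p = 0.673), with 1.72 CPM in upper foot, 1.66 in flank, 1.28 in snout and 1.90 in sole. SULT1B1 and the donor synthases PAPSS1 and PAPSS2 were the other 3 that rose. SULT2B1, which sulfates cholesterol in the epidermis, had a log2 change of -1.45 ± 0.22 (SE, edgeR adjusted p = 2.83e-05), and BPNT2, a phosphatase of nucleotide by-products, -0.61 ± 0.10 (4.92e-05). Within the first set alone, 3 of 11 were higher, without the 3 snout libraries with muscle RNA also 3, and within the second set alone 2, where SULT1C3 was not called (log2 change 0.20, adjusted p = 0.284). SULT1B1, PAPSS1 and PAPSS2 were not called under any of these. Near-identical sulfotransferase copies could split reads in the authors' estimates, so values for single family members are uncertain.

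Of 5 other chitinase family genes tested, 2 were higher in haired skin and 0 lower, beside 24.3% and 24.6% of all genes (median log2 change 1.08). CHI3L2, a chitinase-like protein, was higher by 1.12 ± 0.32 (SE, edgeR adjusted p = 0.00666), though not in the second set alone (adjusted p = 0.371). OVGP1, an oviduct glycoprotein of the same fold, was higher by 1.09 ± 0.24 (edgeR adjusted p = 0.00107) at means of at most 0.999 CPM, though not in the first set alone (adjusted p = 0.0753). The other 3 did not pass: CHI3L1 had a log2 change of -0.67 ± 0.37 (SE, edgeR adjusted p = 0.139), CHID1 by 0.06 ± 0.07 (0.545) and CTBS by 1.08 ± 0.52 (0.0954).

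Proteins that share the fibrinogen-like domain of FIBCD1 showed no common direction. Of 18 others tested, 2 were higher and 5 lower in haired skin, beside 24.3% and 24.6% of all genes, with a median log2 change of 0.12. With the pig as replicate block 4 were higher and 5 lower, and within the first set alone 1 and 5. ANGPT1, a vessel growth factor, was higher by 0.64 ± 0.16 (SE, edgeR adjusted p = 0.00298) and FGL2 by 0.61 ± 0.21 (0.021), the FGL2 call being lost in the first set alone (adjusted p = 0.0996). FGL2 had means of 114 CPM in upper foot, 130 in flank, 135 in snout and 47.1 in sole, so only the sole was below the haired sites. The matrix proteins TNN and TNC had log2 changes of -2.41 ± 0.16 (SE, edgeR adjusted p = 1.33e-09) and -1.39 ± 0.21 (2.44e-05), and ANGPTL5 -1.78 ± 0.30 (6.49e-05). Mean ANGPTL5 levels were 1.42 CPM in upper foot, 0.883 in flank, 12.1 in snout and 1.23 in sole, so sole lay between the haired sites. ANGPTL2 and ANGPTL7 were the other 2 that fell, and neither was called in the second set alone (adjusted p = 0.355 and 0.424), where 3 were lower. TNN was also the gene of this list that differed between the haired sites, higher in upper foot than in flank by 1.57 ± 0.22 (edgeR adjusted p = 0.00116), with means of 82.3 CPM in upper foot and 27.8 CPM in flank.

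The relatives of CPHL1 went different ways. Of 20 other genes of multicopper oxidases, copper and iron handling tested, 10 were higher in haired skin and 4 lower, beside 24.3% and 24.6% of all genes (median log2 change 0.66). HEPHL1, a hephaestin-like oxidase needed for normal hair in humans, was higher by 4.25 ± 0.56 (SE, edgeR adjusted p = 5.37e-06), with 119 CPM in upper foot, 75.7 in flank, 13.3 in snout and 1.92 in sole. HEPH, hephaestin itself, had a log2 change of -1.83 ± 0.25 (SE, edgeR adjusted p = 8.34e-06). CP, ceruloplasmin, had one of -3.41 ± 0.61 (edgeR adjusted p = 0.000141), with means of 0.687 CPM in upper foot, 0.583 in flank, 45.9 in snout and 0.990 in sole. The ferric reductases CYBRD1 and STEAP2 were higher by 1.91 ± 0.23 (SE, edgeR adjusted p = 1.83e-06) and 0.86 ± 0.11 (2.46e-06). Mean STEAP2 levels were 39.1 CPM in upper foot, 62 in flank, 42.8 in snout and 17.2 in sole, so snout lay between the haired sites. SLC31A2, a copper carrier, had a log2 change of -0.98 ± 0.16 (SE, edgeR adjusted p = 5.29e-05). STEAP2 was also lower in upper foot than in flank, by a log2 change of -0.66 ± 0.15 (edgeR adjusted p = 0.0337), a call lost without the low pair of libraries (adjusted p = 0.116).

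**Figure D4:**
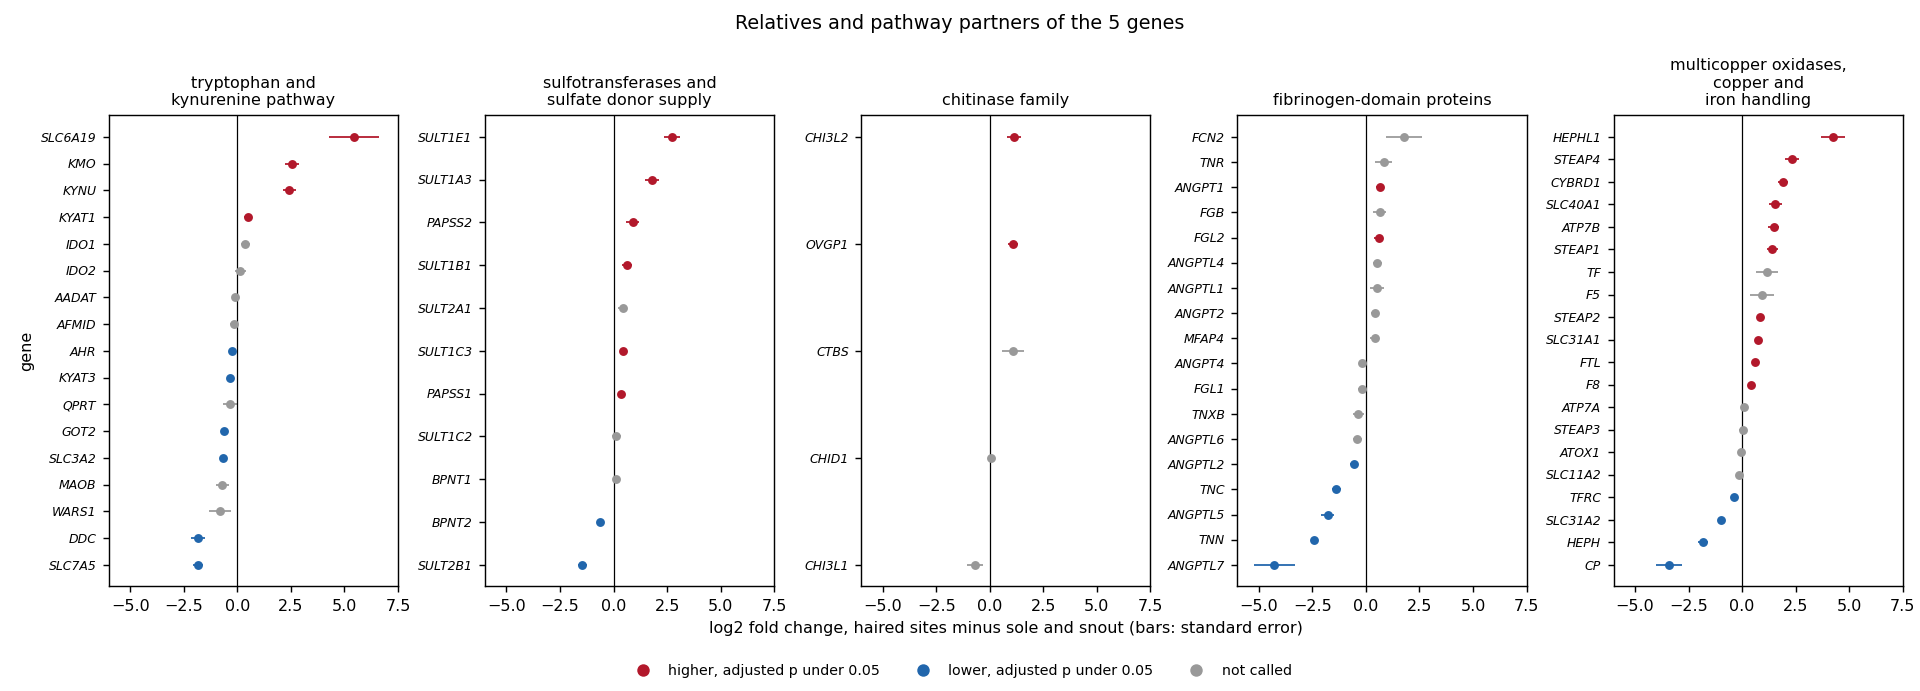
Log2 fold change between haired sites and the sole and snout for the tested relatives and pathway partners of each gene, with bars for the standard error, in 5 lists. Red marks higher and blue lower at an edgeR adjusted p under 0.05. The 5 chosen genes are left out, and every list but the chitinase family holds both higher and lower genes.

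Between snout and sole the same lists gave calls as well. By list, higher and lower counts were 1 and 4 of 17 for tryptophan and kynurenine, 2 and 0 of 11 for sulfotransferases, 1 and 1 of 5 for chitinases, 7 and 0 of 18 for fibrinogen-domain proteins, and 8 and 1 of 20 for copper and iron handling. Without the 3 snout libraries that carried muscle RNA the counts were 1 and 0, 0 and 0, 1 and 0, 5 and 0, and 4 and 0, so that none of the lower calls and neither sulfotransferase call (SULT1A3, adjusted p = 0.165, and BPNT1, 0.0817) was left. Calls fell over all genes too, to 1171 higher and 1140 lower of 15614, from 2918 and 2588 of 15275. The log2 changes of KYAT3, AHR, SLC7A5 and SLC3A2 were then -0.33, -0.42, -1.12 and -0.56, against -0.32, -0.46, -1.22 and -0.63 with all libraries. Those of CHID1 and ATP7A shrank, from -0.27 to -0.19 and from -0.35 to -0.18. With all libraries, 19.1% of all genes were higher and 16.9% lower in snout. ANGPTL5 was higher by 3.28 ± 0.44 (SE, log2; edgeR adjusted p = 1.83e-05), ANGPT4 by 2.00 ± 0.24 (6.94e-06) and ANGPTL1 by 3.16 ± 0.51 (0.000119), all angiopoietins or angiopoietin-like proteins. MAOB, which breaks down amines, was higher in snout by 2.90 ± 0.45 (edgeR adjusted p = 8.83e-05), and STEAP2 by 1.31 ± 0.15 (4.15e-06). SLC7A5 had a log2 change of -1.22 ± 0.31 (SE, edgeR adjusted p = 0.00493), a call lost without the 3 snout libraries that carried muscle RNA (adjusted p = 0.12).

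Markers of other tissue components also differed in this contrast, where 24.3% of all genes tested were called higher and 24.6% lower. Of 20 hair shaft and inner root sheath markers tested, 18 were higher in haired skin than in sole and snout. Higher also were 8 of 11 sebaceous gland markers (2 were lower), 8 of 12 outer root sheath, bulge and dermal papilla markers (2 lower), 9 of 9 adipocyte markers, 9 of 11 dermal fibroblast markers, 5 of 9 macrophage and dendritic cell markers (1 lower), 4 of 5 mast cell and eosinophil markers and 3 of 4 melanocyte markers. Suprabasal keratinocyte markers went the other way, with 1 of 8 higher and 7 lower, and their sums ran from 16995.7 to 28953.4 CPM in upper foot, 12249.8 to 22428.4 in flank, 16609.9 to 28208.2 in snout and 251051.8 to 597405.0 CPM in sole. Of 8 skeletal muscle markers, 5 were lower in haired skin and 0 higher, and these calls rest on the 3 snout libraries that carried muscle RNA. Without those libraries MYL11, CKM, MYBPC1 and ACTA1 were not called (edgeR adjusted p 0.0717 to 0.807). XIRP2 then turned to a log2 change of 1.47 (edgeR adjusted p = 0.0197). Sweat gland markers divided, with 5 of 9 higher and 3 lower: KRT77, a keratin of sweat ducts, was higher by 5.45 ± 0.39 (SE, log2; edgeR adjusted p = 3.07e-09), while AQP5, the water channel of secretory cells, had a log2 change of -5.01 ± 0.46 (6.75e-08). Summed sweat gland markers ran from 302.8 to 413.8 CPM in upper foot, 327.5 to 497.6 in flank, 219.6 to 478.5 in snout and 936.1 to 6050.6 CPM in sole. None of 6 endothelial markers was called in either direction (edgeR). Summed hair shaft and inner root sheath markers had medians of 12941.6 CPM in upper foot, 7278.5 in flank, 1059.6 in snout and 23.2 CPM in sole. Summed mast cell markers overlapped between snout and the haired sites, with 118.6 to 153.5 CPM in upper foot, 103.1 to 154.7 in flank, 88.2 to 123.9 in snout and 26.6 to 78.1 CPM in sole. Macrophage and dendritic cell sums did so too, with 201.4 to 333.6 CPM in upper foot and 189.9 to 472.3 in flank. They ran from 225.3 to 329.6 CPM in snout and 76.6 to 200.6 in sole. Outer root sheath, bulge and dermal papilla sums of snout, 329.3 to 512.0 CPM, overlapped those of flank, 418.3 to 649.7 CPM, but not of upper foot, 650.8 to 731.9 CPM. Which cells carried the 5 transcripts was not tested.

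On the pig reference gene table, TDO2, CHIA and FIBCD1 could be placed among their neighbours. CTSO and PDGFC, the next genes on 1 side of TDO2, were higher in haired skin by 0.65 ± 0.18 and 0.86 ± 0.10 on the log2 scale (SE, edgeR adjusted p = 0.00567 and 1.78e-06). Beside CHIA, CHI3L2 was higher, as given above, and DENND2D had a log2 change of -0.96 ± 0.19 (SE, edgeR adjusted p = 0.000385). Around FIBCD1, AIF1L was higher by 0.73 ± 0.28 (SE, edgeR adjusted p = 0.0344), and neither ABL1 (log2 change -0.02 ± 0.17, adjusted p = 0.92) nor LAMC3 (-0.34 ± 0.16, 0.0791) passed.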

How the data were processed

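The authors deposited 1 table of expected counts (estimated counts, not normalized) per Ensembl gene, for which the submitters' processing notes name Salmon. Salmon's version, the build and the annotation were not given in the sources used here, so no coordinates are printed. The libraries were stranded mRNA preparations, per the labels' protocols. A fractional part was present in 42.2% of values (tolerance 0.000000001), and counts were rounded before testing. Salmon can divide reads between near-identical copies, which leaves values for CPHL1, CHIA and SULT1C4, which have close relatives, uncertain. Gene lengths are not in the table, so levels are not compared between genes. Of 19280 identifiers, 14821 matched a symbol in the supplied tables.

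CPM were computed on library sizes scaled by TMM (factors 0.569 to 1.291). Differences were tested in R 4.3.3 with the quasi-likelihood F test of edgeR 4.0.16 on 4 site means over 20 libraries (15275 genes after filterByExpr with a count minimum of 10, 16 residual degrees of freedom), with Benjamini-Hochberg adjustment over all genes tested. A gene was called at an adjusted p under 0.05. The haired contrast averages upper foot and flank and subtracts the average of snout and sole. The tests were checked on simulated data. Alternatives used DESeq2 1.42.0, limma 3.58.1, other scaling, no filter, the sites as deposited, either set, a pig block, and each pig or library left out.

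The members and the gene lists were chosen with earlier results of these data known. Pathway genes were named by rule, up to 3 called genes with the smallest adjusted p in each direction per list and comparison, and the genes most like a member by Pearson r (5 over 20 libraries and 3 on deviations from site means, mean of at least 1 CPM, pseudocount 0.5). Others named are so for their role. Some genes that the rule selects are not reported here. Libraries of 1 pig are paired per the labels: same-pig deviations correlated at 0.09 to 0.43 (median 0.22) among first-set libraries and at 0.13 to 0.47 (median 0.31) among second-set ones. Floors are 3 counts over a group. Neighbours come from the supplied RefSeq gene table, which did not hold CPHL1 or SULT1C4 by name.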

Additional observations from a re-analysis of the deposited data

Results flagged for a closer look

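In the flank, the library of the 4-month pig stood far below the other 4 for 3 of the genes, with 1.07 CPM of TDO2, 1.23 CPM of SULT1C4 and 2.69 CPM of CHIA. Each gap exceeded Dixon's critical value of 0.71 for 5 samples on log2(CPM + 0.5). Chance flags about 1 in 20 groups, and the 3 values come from 1 library. CPHL1 in the same library, at 30.5 CPM, and FIBCD1, at 13.6 CPM, did not exceed it, nor did any of the 5 genes in the upper foot library of the 5-month pig.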

How the results depend on the processing

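The haired contrast called 7460 genes, 4892 in the first set alone and 42 with the sites as deposited in both sets. Upper-quartile scaling called 4660 higher and 2942 lower in it, against 3707 and 3753, with the median of all genes shifted by 0.09 (log2). Upper foot minus flank called 177 genes, 503 with DESeq2, 334 with the pig as replicate block, 20 in the first set, 6 in the second and 0 as deposited (1791 at an unadjusted p under 0.05), and 52 to 262 with a pig or library left out. Snout minus sole called 5506, 1768 in the first set, 0 as deposited (992 unadjusted), 2311 without the 3 snout libraries with muscle RNA (chosen after seeing the data), and 3634 to 6110 with a pig or library left out. None of the 5 genes was called between the haired sites, and neither CHIA nor CPHL1 between snout and sole, under any alternative run, the replicate block included. With sites as deposited, upper foot minus flank turned to 0.88 for CPHL1, 0.35 for TDO2, 0.92 for SULT1C4 and 1.00 for CHIA. Snout minus sole turned to -0.32 for CPHL1 without those 3 libraries and to -0.81 for CHIA in the second set alone. For these changes the cause was not tested, beyond the fewer samples in each set. The sites matched the rule in 8 of 8 second-set libraries under all 4 alternatives. Of the 5 genes most like a member, at least 2 stayed under other pseudocounts. Fitted changes of TDO2, SULT1C4 and FIBCD1 between snout and sole are not given and were not followed across alternatives, since their counts are at or near the floor.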
